A study of Sus scrofa with 8 samples.

Results

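The RNA of the heart of Tibetan pigs raised at 3000 m (TH) was compared with that of Tibetan pigs raised at 100 m (TL), a contrast of altitude within 1 breed, with 2 RNA-seq libraries per group (TH1 and TH2, TL1 and TL2). All pigs were males of 6 months, and each library was made from RNA pooled in equal amounts from 4 pigs. The p-values therefore measure how pools differ, not how single pigs do. The 2 groups were kept at different sites, in Tibet and in Beijing, so altitude and site cannot be told apart, and the sources used here do not name the part of the heart that was taken. The series also holds Yorkshire pigs at both altitudes (YH and YL, 2 libraries each), which are given here beside the Tibetan values and are not compared for their own sake. YL1 and YL2 are taken as YL by title and breed, although a further label of both points to TL data. Of the 18975 genes in the table, the 10926 with at least 1 FPKM (fragments per kilobase of transcript scaled to library size) in at least 2 of the 4 Tibetan libraries and at least 10 scaled reads in 2 of them were tested. A further 261 genes reached the FPKM limit but not the limit on reads.

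The heart meets a higher load, which pressure in the lung circulation can impose at altitude, by a well-known programme of gene expression. Cardiomyocytes release the natriuretic peptides ANP and BNP, encoded by *NPPA* and *NPPB*, change the isoforms of their contractile proteins and strengthen the Z-disc, the structure that anchors actin filaments and senses stretch. Low oxygen acts mainly through hypoxia-inducible factors (HIF), which are destroyed in the presence of oxygen by the prolyl hydroxylases and, when stable, switch on genes of glycolysis and vessel growth, while the normal adult heart obtains most of its energy from the oxidation of fatty acids.

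Reads on genes numbered between 15686825 and 26722609 per Tibetan library, estimated by dividing the scaled reads of a library by its value for 1 read. The TH libraries were less alike than the TL libraries: over the 4057 tested genes with a mean of at least 10 FPKM, the log2 difference between the libraries of a group had an SD of 0.65 in TH and 0.30 in TL. Genes of the mitochondrial genome took 47.8% of the reads in TH1, 33.1% in TH2 and 36.1% in both TL libraries. RNA of the ventricular markers *MLC-2V* (*MYL2*, the ventricular regulatory myosin light chain) and *TNNI3* (cardiac troponin I) stood at 13449 and 8321 FPKM in TH against 10186 and 12024 in TL and at 16846 and 7360.4 FPKM in TH against 9287 and 10085 in TL. Markers of other organs were low: 14 kidney markers summed to between 3.70 and 14.5 FPKM per Tibetan library, with 2 listed at 0 in all 4, and 5 lung markers to between 0.805 and 1.22 FPKM, with 2 at 0. The 13 liver markers, 2 of them at 0, summed to 17.3 FPKM in both TH libraries and to 33.3 and 30.3 in TL.

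Of the 10926 genes, 87 (0.796%) passed an adjusted p under 0.05 with a log2 fold change over 1 in size in a limma fit of log2(FPKM + 1) to the 4 Tibetan and the 2 YH libraries, 46 genes (0.421%) being higher and 41 (0.375%) lower in TH. "Rose" and "fell" are used below only of these 87 genes, in all of which the TH and TL libraries did not overlap. Groups of 2 libraries fail to overlap in many genes, here in 49.8% of those tested: both TH libraries lay above both TL libraries in 24.8% of all genes tested and below them in 25.0%, and 2.83% did so with a log2 fold change over 1 and 2.89% with one under -1. The median log2 fold change of all genes tested was -0.02. The shares of 24.8% and 25.0% are those to set beside the counts of each gene list below. These lists were chosen with earlier results of these data known, so their counts are no independent evidence of a direction. At an unadjusted p under 0.05, 2040 genes passed, and an exact permutation test of 2 libraries against 2 cannot give a two-sided p below 0.333. The number of calls depended on the libraries: it was 0 without TL1, 3 without TL2, 48 without TH1 and 1485 without TH2, and 14 without YH1 or without YH2. It was also 7 with all 8 libraries in the fit. Scaling moved the split between rises and falls, which was 21 to 10 with median-ratio scaling and 47 to 14 with equal sums of FPKM over the genes outside the mitochondrial genome. These scalings shifted the median of all genes by -0.08 and -0.10, and the medians of the Z-disc genes and of the atrial markers, described below at 0.04 and 0.02, became -0.06 and -0.06 with the first and -0.09 and -0.08 with the second. A fold change on this scale understates that of genes at a few FPKM.

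**Figure D1:**
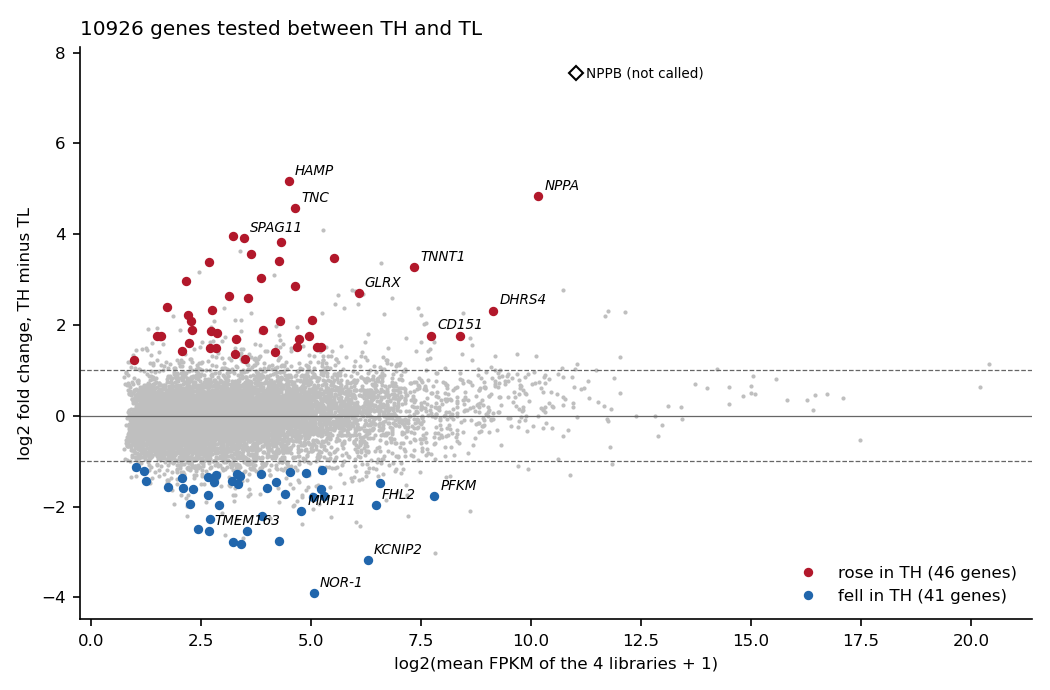
Log2 fold change of TH minus TL against log2(mean FPKM + 1) of the 4 Tibetan libraries for the 10926 genes tested; coloured points are the 46 genes that rose and the 41 that fell, grey points are all others, and dashed lines mark a log2 fold change of 1. *NPPB* has the largest fold change on this scale, 7.55, and lies outside the calls, with an adjusted p of 0.0528 in limma.

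Both natriuretic peptide genes were far higher in TH. *NPPB* (BNP) measured 4963 and 3264 FPKM in TH against 7.75 and 51.7 in TL, the largest fold change of all genes tested on the scale of log2(FPKM + 1), but it did not pass the test (log2 fold change 7.55 ± 1.19, adjusted p = 0.0528, limma with Benjamini-Hochberg adjustment, SE after ±). Both TH libraries lay far above both TL libraries, and the TL libraries differed from each other by a larger ratio than the TH libraries did. *NPPA* (ANP) measured 2263 and 2146 FPKM in TH against 53.1 and 108 in TL and rose (log2 fold change 4.84 ± 0.63, adjusted p = 0.0426). The genes adjoin each other on chromosome 6 of the pig genome build Sscrofa10.2, *NPPA* (ENSSSCG00000003430) at chr6:65830301-65830859 and *NPPB* (ENSSSCG00000003431) at chr6:65840060-65841530. In the Yorkshire libraries *NPPB* was at 16.1 and 180.0 FPKM in YH and 278 and 64.3 in YL and *NPPA* at 23.1 and 93.1 FPKM in YH and 23.3 and 46.3 in YL, every one of them below both TH libraries.

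RNA of the proteins that process and bind these peptides was measured too. *CORIN*, the protease that cleaves pro-ANP, was at 3.84 and 4.32 FPKM in TH against 11.2 and 9.83 in TL (log2 fold change -1.18 ± 0.22, adjusted p = 0.0690). *MME*, which encodes neprilysin, the peptidase that degrades natriuretic peptides, was at 0.447 and 1.04 FPKM in TH against 4.23 and 3.49 in TL (log2 fold change -1.50 ± 0.26, adjusted p = 0.0619). *PCSK6*, which activates corin, was at 1.79 and 5.96 FPKM in TH against 12.4 and 11.5 in TL at the more abundant of its 2 loci. All of these were lower in both TH libraries and none passed the test. Of the receptors, *NPR1* was at 11.17 and 13.59 FPKM in TH against 10.23 and 9.34 in TL. The clearance receptor *NPR3* was at 10.3 and 8.83 FPKM in TH against 4.398 and 5.53 in TL. Both were higher in TH without overlap and not called, while *NPR2* overlapped. Of the 9 genes of the system tested, 1 rose and 0 fell, 4 were higher and 4 lower without overlap, and the median was -0.10, between -0.20 and 0.00 when each library was left out.

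Genes that answer load and stretch were mostly higher in TH. Of 22 tested, 14 (63.6%) were higher and 3 (13.6%) lower without overlap, against 24.8% and 25.0% of all genes tested. The median was 0.96 against -0.02 over all genes tested, and 1 gene, *NPPA*, was called. This list was chosen with earlier results of these data known, so its count is no independent evidence of a direction. *ANKRD2*, a stretch-responsive ankyrin repeat protein, measured 68.2 and 73.7 FPKM in TH against 1.49 and 6.12 in TL (log2 fold change 4.09 ± 0.85, adjusted p = 0.0802). *ANKRD1*, its cardiac relative, measured 2935 and 2776 FPKM in TH against 885 and 1873 in TL. *FHL1C*, the table's name for *FHL1*, which encodes a LIM protein of the sarcomere that takes part in stretch sensing, was at 3695 and 2185 FPKM in TH against 287 and 593 in TL (log2 fold change 2.78 ± 0.45, adjusted p = 0.0560). *CSRP3*, the muscle LIM protein, was at 7832 and 3786 FPKM in TH against 954 and 1274 in TL (log2 fold change 2.30 ± 0.54, adjusted p = 0.102). TL2 stood above TL1 in each of these genes, and in *ANKRD2* YH2 lay close to the TH libraries, at 64.6 FPKM. The median of the list without each Tibetan library in turn ranged from 0.49 (without TL1) to 1.24 (without TL2).

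The skeletal actin gene *ACTA1* was at 30005 and 21387 FPKM in TH against 9944 and 15576 in TL. The cardiac actin gene *ACTC1* was at 2717 and 2039 FPKM in TH against 4818 and 5018 in TL. *MYH6*, the fast alpha myosin heavy chain, was at 20.6 and 18.4 FPKM in TH against 75.1 and 161 in TL (log2 fold change -2.44 ± 0.42, adjusted p = 0.0590). None of these 3 genes was called, though none overlapped between the groups, and *MYH7* was not matched in the table. *TNNT1*, the slow skeletal troponin T, measured 339 and 249 FPKM in TH against 30.3 and 27.9 in TL and rose (log2 fold change 3.27 ± 0.23, adjusted p = 0.00909). *TNNC2*, the fast skeletal troponin C, outside the sarcomere list, rose from a low level, at 3.24 and 3.41 FPKM in TH against 0.252 and 0.305 in TL. *MYOM3*, a protein of the M-band that links myosin filaments, measured 13.8 and 21.4 FPKM in TH against 57.8 and 51.8 in TL and fell (log2 fold change -1.61 ± 0.24, adjusted p = 0.0480). Its relative *MYOM2* was at 136 and 166 FPKM in TH against 396 and 375 in TL without a call. Over the 31 sarcomere genes tested, 1 rose, 1 fell, 7 were higher and 10 lower without overlap, and the median was -0.07, which was 0.20 without TH2 and -0.23 without TH1. The abundant *MLC-2V* and *TNNI3* overlapped between the groups, at the levels given above.

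At the Z-disc and in the desmin and filamin scaffold, 12 of 33 genes were higher and 8 lower without overlap, 0 rose and 1 fell, with a median of 0.04 that was -0.06 without TL1 and 0.28 without TL2. The shares were 36.4% and 24.2%, against 24.8% and 25.0% of all genes tested, so that of lower genes was near the share of all genes. *DES*, which encodes the muscle intermediate filament desmin, was at 9125 and 5761 FPKM in TH against 1295 and 1728 in TL (log2 fold change 2.28 ± 0.38, adjusted p = 0.0590). The desmin chaperone *CRYAB* was at 6494 and 4239 FPKM in TH against 1041 and 1250.1 in TL (log2 fold change 2.20 ± 0.41, adjusted p = 0.0705). *PDLIM3*, a Z-disc protein that binds alpha-actinin, was at 236 and 351 FPKM in TH against 38.7 and 97.1 in TL. Filamin C (*FLNC*) was at 498 and 462 FPKM in TH against 120.0 and 287 in TL. The fall was that of *FHL2*, a LIM protein of the ventricular sarcomere, which measured 29.01 and 42.1 FPKM in TH against 155 and 125 in TL (log2 fold change -1.96 ± 0.24, adjusted p = 0.0379). *FHL1C* and *FHL2*, of 1 family, thus differed in direction, and the Yorkshire libraries stood between the groups in both genes apart from YL2, which lay within the TL range in *FHL1C* (396 FPKM) and within the TH range in *FHL2* (35.4 FPKM). Outside the list, *CMYA5*, a protein of the costamere that binds desmin, fell from 9.32 and 8.800 FPKM in TL to 2.29 and 3.11 in TH. *DTNA*, a member of the dystrophin complex, fell from 30.7 and 31.7 FPKM in TL to 12.05 and 13.2 in TH, while another, less abundant locus of that name overlapped.

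**Figure D2:**
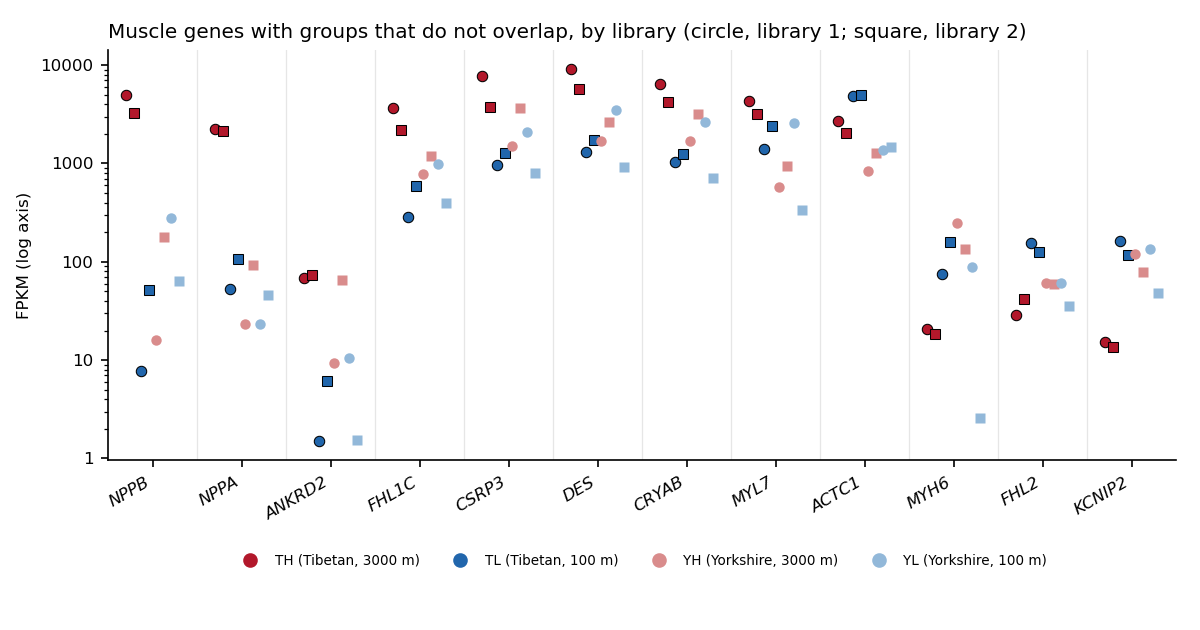
FPKM on a log axis of 12 muscle genes in each library, TH in red, TL in blue and the Yorkshire groups in pale colours, with a circle for library 1 and a square for library 2 of a group. *NPPA*, *FHL2* and *KCNIP2* were called, and in all 12 genes the TH and TL libraries do not overlap.

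The calls include genes that atria express more than ventricles, so the markers of atrial muscle were examined. Of the 13 tested, 5 were higher and 5 lower in TH without overlap, with a median of 0.02 that lay between -0.15 (without TL2) and 0.20 (without TL1) when each library was left out. *NPPA* and *SLN*, which encodes sarcolipin, an inhibitor of the calcium pump, rose, *SLN* being at 56.5 and 16.3 FPKM in TH against 0.812 and 1.69 in TL (log2 fold change 3.84 ± 0.53, adjusted p = 0.0436). *MYL7*, the atrial regulatory light chain, was at 4283 and 3207 FPKM in TH against 1415 and 2396 in TL (log2 fold change 1.01 ± 0.39, adjusted p = 0.237), with TL2 closer to TH than TL1 was. *MYL4*, the atrial essential light chain, was lower in TH, at 7.59 and 6.73 FPKM in TH against 8.85 and 21.4 in TL, as were *MYH6*, *TBX5*, *KCNJ3* and *HEY1*. *STARD10* and *PAM* were higher without a call, and *NR2F2*, *GJA5* and *TBX18* overlapped. The summed FPKM of the list was 6838 and 5611 in TH against 1705 and 2875 in TL, most of it from *MYL7* and *NPPA*. Ventricular markers summed to 38036 and 21291 in TH and to 27825 and 31750 in TL. What part a difference in the piece of heart taken had in these values was not tested.

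Repolarising current and calcium handling were represented among the falls by 1 of the largest. *KCNIP2*, an auxiliary subunit of the channels of the transient outward potassium current in ventricular muscle, measured 15.2 and 13.5 FPKM in TH against 163 and 116 in TL and fell (log2 fold change -3.18 ± 0.28, adjusted p = 0.0193), with fold changes from -3.42 to -2.94 when each Tibetan library was left out in turn. It lies at chr14:122709354-122726483 (ENSSSCG00000010570), and the Yorkshire libraries held 119 and 78.4 FPKM in YH and 134 and 48.6 in YL, all above TH. *CACNG6*, a calcium channel gamma subunit outside the lists counted here, also fell, from 13.7 and 13.98 FPKM in TL to 5.03 and 4.84 in TH. The hERG channel gene *KCNH2* was at 83.7 and 51.7 FPKM in TH against 26.6 and 30.6 in TL. Its partner *KCNE1* was at 279 and 150.2 FPKM in TH against 121 and 133 in TL, and neither was called. Of 22 genes of ion channels and gap junctions tested, 0 rose and 1 fell, and the connexin 43 gene *GJA1* overlapped between the groups (233 and 196 FPKM in TH against 209 and 201 in TL). Of 28 genes of calcium cycling in the sarcoplasmic reticulum, 1 rose (*SLN*), 4 were higher and 12 lower without overlap, and the median was -0.24, which was -0.37 without TL1 and -0.09 without TL2. Phospholamban (*PLN*), the other small inhibitor of the pump, was lower in TH, at 1121 and 1006 FPKM in TH against 2195 and 1919 in TL (log2 fold change -0.95 ± 0.27, adjusted p = 0.138).

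Genes of the citric acid cycle, of ketone use and of branched-chain amino acid breakdown were lower in TH throughout the list. All 41 tested had a negative fold change, 33 of them without overlap between groups against 25.0% of all genes, and the median was -0.60, between -0.73 and -0.55 over the alternatives. Of these, 1 passed the test and fell. *BDH1*, which oxidises the ketone body hydroxybutyrate, was at 16.9 and 14.6 FPKM in TH against 37.5 and 41.6 in TL (log2 fold change -1.28 ± 0.20, adjusted p = 0.0516). *BCKDHB*, a subunit of the branched-chain ketoacid dehydrogenase, was at 10.9 and 15.6 FPKM in TH against 39.7 and 36.1 in TL. *PCCA*, of propionyl-CoA carboxylase, was at 3.82 and 6.95 FPKM in TH against 14.5 and 14.02 in TL. *MCCC1*, of the leucine pathway, was at 5.59 and 7.804 FPKM in TH against 16.2 and 15.6 in TL. In these genes both TH libraries lay below both TL libraries. Abundant enzymes of the cycle overlapped between the groups, *MDH2* being at 612 and 431 FPKM in TH against 477 and 557 in TL. *IDH2* was at 568 and 373 FPKM in TH against 414 and 549.8 in TL. The mitochondrial aldehyde and amino acid enzymes *ADHFE1* and *AMT*, outside this list, also fell, *ADHFE1* from 48.8 and 54.5 FPKM in TL to 21.4 and 22.6 in TH. *AMT* went from 4.61 and 5.48 FPKM in TL to 1.21 and 1.45 in TH.

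Glycolysis and glycogen genes were lower in TH more often than higher. Of 44 tested, 0 rose and 1 fell. Without overlap 4 were higher and 23 lower, 9.09% and 52.3% against 24.8% and 25.0% of all genes tested. The median was -0.38. *PFKM*, the muscle phosphofructokinase that commits sugar to glycolysis, measured 82.1 and 120.0 FPKM in TH against 299 and 387 in TL and fell (log2 fold change -1.77 ± 0.27, adjusted p = 0.0480). Muscle glycogen phosphorylase (*PYGM*) was at 78.1 and 64.1 FPKM in TH against 145 and 186 in TL. Muscle enolase (*ENO3*) was at 713 and 492 FPKM in TH against 1198 and 1496 in TL. The glycogen scaffold *PPP1R3A* was at 2.99 and 3.299 FPKM in TH against 6.78 and 9.47 in TL. These 3 were lower in TH and not called. *GAPDH* overlapped, at 9930.2 and 5351 FPKM in TH against 7085 and 9815 in TL. The muscle creatine kinase gene *CKM* was at 1299.9 and 917 FPKM in TH against 2698 and 2678 in TL (log2 fold change -1.30 ± 0.29, adjusted p = 0.0925). Its mitochondrial partner *CKMT2* was at 1324 and 797 FPKM in TH against 532 and 782 in TL.

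*PDK4*, the kinase that shuts pyruvate out of the citric acid cycle and favours fat as a fuel, had the largest fold change of the glycolysis and fatty acid lists, at 183 and 154 FPKM in TH against 6.499 and 34.7 in TL (log2 fold change 3.37 ± 0.65, adjusted p = 0.0727). TL was below every other library here, the Yorkshire libraries being at 303 and 253 FPKM in YH and 359 and 77.7 in YL. The same holds for *ANGPTL4*, an inhibitor of lipoprotein lipase, at 21.5 and 10.04 FPKM in TH against 3.16 and 3.42 in TL, and 11.2 and 9.78 FPKM in YH and 7.43 and 15.3 in YL. It also holds for *CPT1A*, which brings fatty acids into mitochondria, at the more abundant of 2 loci, with 13.7 and 14.2 FPKM in TH against 6.26 and 4.79 in TL, and 17.8 and 13.3 FPKM in YH and 13.9 and 78.6 in YL. The lipid droplet gene *PLIN2*, outside the list, measured 8.45 and 10.1 FPKM in TH against 1.402 and 2.33 in TL and rose (log2 fold change 1.86 ± 0.22, adjusted p = 0.0339). It was at 24.6 and 23.9 FPKM in YH and 5.95 and 21.2 in YL. Its relatives went different ways, *PLIN5* being at 18.00 and 11.7 FPKM in TH against 3.02 and 2.202 in TL without a call. *PLIN4*, also outside the list, fell from 8.92 and 9.33 FPKM in TL to 2.65 and 3.58 in TH. Among the oxidation enzymes, *DECR1* was at 29.7 and 27.2 FPKM in TH against 74.1 and 67.03 in TL (log2 fold change -1.28 ± 0.23, adjusted p = 0.0659). *ETFA*, which passes their electrons on, was at 69.7 and 102 FPKM in TH against 181 and 169 in TL. Of the 41 genes of fatty acid uptake and oxidation, 9 were higher and 15 lower without overlap, 0 were called, and the median was -0.17, which was -0.03 without TH2 and -0.10 without TL2.

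Nuclear genes of oxidative phosphorylation differed more between TH libraries than between groups. Of 71 tested, 3 were higher and 13 lower without overlap, 0 were called and the median was -0.01, which became 0.37 without TH2 and -0.38 without TH1. Mitochondrially encoded genes stood likewise: all 13 had a positive fold change, 7 without overlap, and their median of 0.49 was 0.98 without TH2 and 0.08 without TH1. *MT-ND3*, for example, was at 90628 and 37418 FPKM in TH against 32767 and 33448 in TL. *NDUFS1*, of complex I, was lower in both TH libraries, at 56.8 and 61.7 FPKM in TH against 119 and 122 in TL. So was *UQCRC2*, of complex III, at 48.7 and 60.7 FPKM in TH against 107 and 109.7 in TL.

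Genes of the cytosolic ribosome were higher in TH as a block. Of 75 tested, 68 were higher without overlap between groups against 24.8% of all genes, 0 were lower, 73 had a positive fold change and the median was 0.73. Only *RPL3* and *RPSA* rose, *RPL3* from 151 and 148 FPKM in TL to 575 and 451 in TH (log2 fold change 1.76 ± 0.26, adjusted p = 0.0463). *RPSA* went from 3.56 and 3.66 FPKM in TL to 12.2 and 15.8 in TH. Ribosomal protein genes have many near-identical processed copies in the genome, to which reads can be split or shared, so single values are uncertain. The abundant *RPLP1* was at 3612 and 2715 FPKM in TH against 1702 and 2003 in TL. *RPS28* was at 3585 and 2228 FPKM in TH against 1778 and 1900.2 in TL. TH1 carried most of the difference: the median of the list was 1.16 without TH2 and 0.34 without TH1, and its member genes lay at a median of 0.76 above the mean of the 4 libraries in TH1, at -0.02 in TH2, at -0.37 in TL1 and at -0.35 in TL2. TH1 is also the library with the highest mitochondrial share of reads, 47.8%, and the part of this in the result was not tested.

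The remaining genes of protein synthesis and quality control held 0 calls in 3 lists. Of 43 translation factors, 20 were higher and 8 lower without overlap, with a median of 0.14 that was 0.22 without TH2, and *EIF4EBP1*, the repressor of cap-dependent translation, was at 104 and 54.6 FPKM in TH against 29.01 and 31.3 in TL. Of 37 proteasome genes, 16 were higher and 2 lower, with a median of 0.27 that was 0.04 without TH1 and 0.44 without TH2. Of 38 chaperones, 23 were higher and 6 lower, with a median of 0.27. Among them *HSP90AA1* was at 673 and 491 FPKM in TH against 303 and 314 in TL. *BAG1*, a partner of HSP70, was at 59.4 and 51.4 FPKM in TH against 26.3 and 21.99 in TL. The myosin chaperone partner *SMYD1* was the lowest of them relative to TL, at 7.100 and 17.1 FPKM in TH against 41.1 and 40.9 in TL. The medians of these lists were 0.05 for translation factors, 0.17 for the proteasome and 0.16 for chaperones with median-ratio scaling, and 0.03, 0.14 and 0.14 with equal FPKM sums outside the mitochondrial genome. Muscle ubiquitin ligases and atrophy genes were lower more often, 15 of 21 without overlap against 2 higher, with a median of -0.41. Over all genes tested, 25.0% were lower and 24.8% higher. *KLHL38* fell, at 8.31 and 9.15 FPKM in TH against 24.8 and 26.9 in TL (log2 fold change -1.47 ± 0.18, adjusted p = 0.0390). *ASB15* was at 2.99 and 6.24 FPKM in TH against 16.7 and 17.7 in TL. *KLHL31* was at 5.02 and 14.8 FPKM in TH against 36.3 and 38.4 in TL without a call. *ASB11*, a muscle substrate receptor of a ubiquitin ligase outside the list, fell as well (18.6 and 15.2 FPKM in TH against 64.00 and 55.7 in TL).

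**Figure D3:**
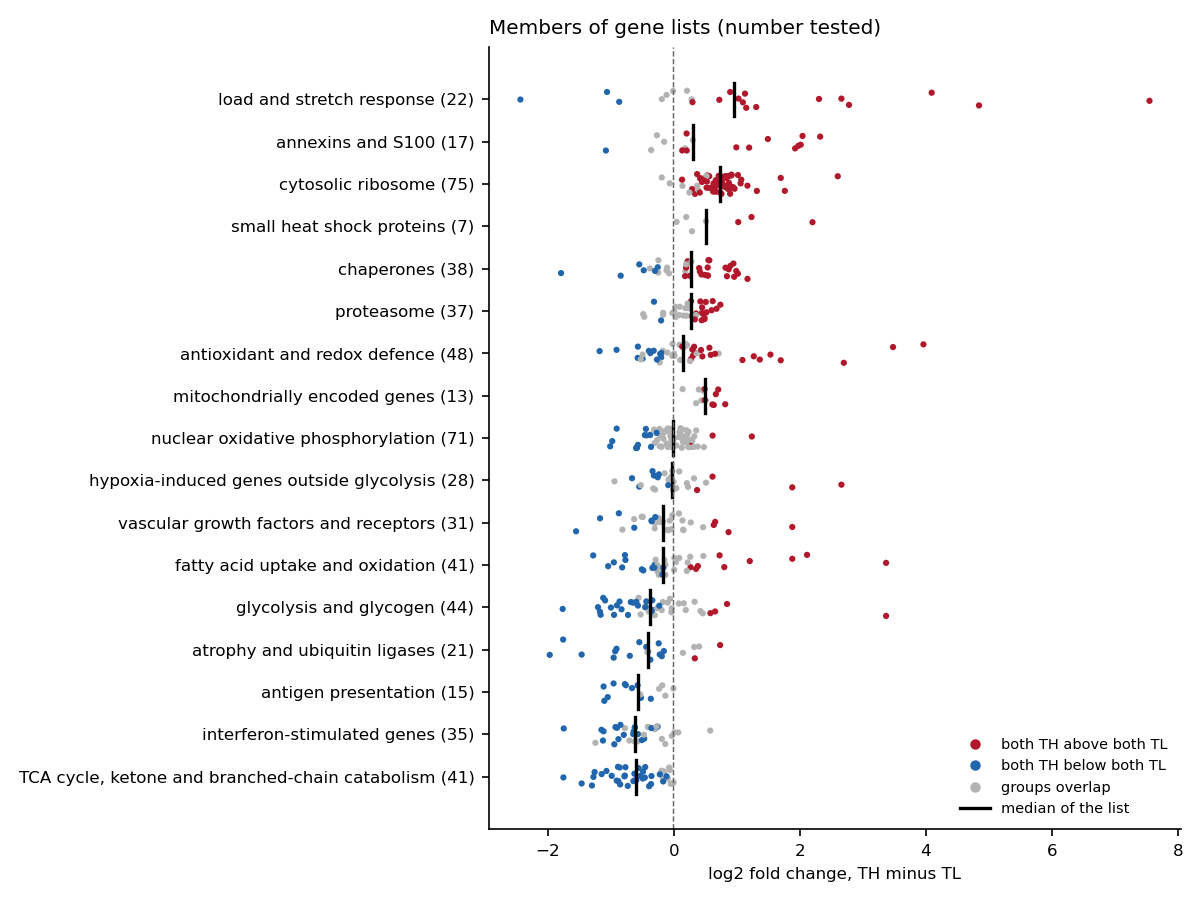
Log2 fold change of TH minus TL for each tested member of 17 gene lists, with the number tested in brackets; red and blue points are members whose TH libraries lie both above or both below the TL libraries, grey points overlap, black bars are list medians and the dashed line is the median of all genes tested. The ribosome lies to the right with a median of 0.73, and the citric acid cycle and ketone list to the left with -0.60.

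Among genes of matrix proteins, 3 of the list tested rose. *TNC*, which encodes tenascin-C, a matrix glycoprotein of injured and remodelling heart, measured 46.5 and 47.5 FPKM in TH against 0.808 and 1.23 in TL and rose (log2 fold change 4.58 ± 0.70, adjusted p = 0.0480). It lies at chr1:286604310-286608866 (ENSSSCG00000026492), and among the Yorkshire libraries YH2 was the highest, at 10.95 FPKM. *SPP1*, osteopontin, measured 16.7 and 11.6 FPKM in TH against 1.53 and 1.298 in TL and rose (log2 fold change 2.63 ± 0.24, adjusted p = 0.0193). *LOXL1*, a lysyl oxidase that crosslinks elastin, measured 22.02 and 22.98 FPKM in TH against 5.001 and 5.71 in TL and rose (log2 fold change 1.89 ± 0.20, adjusted p = 0.0301). *BMP1*, the protease that trims procollagen, lies outside the list and rose too, from 12.6 and 12.04 FPKM in TL to 41.8 and 32.6 in TH. *TIMP1*, an inhibitor of matrix metalloproteinases, was at 149.8 and 77.8 FPKM in TH against 19.1 and 18.6 in TL (log2 fold change 2.46 ± 0.47, adjusted p = 0.0735). The proteoglycan biglycan (*BGN*) was at 258 and 178 FPKM in TH against 73.6 and 56.8 in TL. Decorin (*DCN*) was lower, at 72.4 and 148 FPKM in TH against 266 and 225 in TL. *MMP11*, a metalloproteinase outside the list, measured 10.8 and 8.09 FPKM in TH against 42.1 and 44.9 in TL and fell (log2 fold change -2.10 ± 0.20, adjusted p = 0.0193). Of 50 genes of this list, 3 rose, 0 fell, 17 were higher and 6 lower without overlap, with a median of 0.23 that was 0.62 without TH1 and -0.07 without TH2.

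Collagens and fibroblast markers followed the single TH libraries. *COL3A1* was at 18.2 and 172 FPKM in TH against 213 and 171 in TL. *COL1A1*, at the more abundant of its 2 loci, was at 43.3 and 192 FPKM in TH against 187 and 124 in TL. In both genes TH1 was the only Tibetan library that was low. The median of 19 collagens was -0.01, -0.71 without TH2 and 0.46 without TH1. The 12 fibroblast markers summed to 307 FPKM in TH1, 925 in TH2, 1036 in TL1 and 870 in TL2. *TIMP3*, an inhibitor of metalloproteinases, showed the same split, at 1.696 and 34.3 FPKM in TH against 26.2 and 30.5 in TL. In bulk RNA, fewer cells of a type and less RNA per cell cannot be told apart.

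Among the receptors for matrix, *CD151*, a tetraspanin that binds laminin-receptor integrins, measured 324 and 329 FPKM in TH against 90.5 and 100.2 in TL and rose (log2 fold change 1.77 ± 0.20, adjusted p = 0.0330). The libraries of each group were close to each other, every Yorkshire library lay near TL (94.7 and 112 FPKM in YH and 115 and 80.8 in YL), and the fold change was between 1.69 and 1.84 when each Tibetan library was left out in turn. The gene lies at chr2:144752-149372 (ENSSSCG00000012840). *ITGAV*, the alpha V integrin, measured 42.98 and 59.3 FPKM in TH against 17.2 and 16.8 in TL and rose (log2 fold change 1.52 ± 0.23, adjusted p = 0.0483). *PARVB*, which couples integrins to actin and lies outside the list, rose from 17.8 and 18.8 FPKM in TL to 60.1 and 49.4 in TH. The hyaluronan receptor *CD44* was at 75.5 and 81.1 FPKM in TH against 11.2 and 15.95 in TL (log2 fold change 2.47 ± 0.50, adjusted p = 0.0764). *CD63*, a tetraspanin of endosomes, was at 956 and 598 FPKM in TH against 370.0 and 378 in TL. Of 34 genes, 2 rose, 0 fell, 11 were higher and 7 lower without overlap, and the median was -0.08, which was 0.21 without TH1, -0.26 without TH2, -0.19 without TL1 and 0.05 without TL2, so these genes were not the rule of their list.

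Annexins and S100 proteins, calcium-binding proteins of membranes and injured tissue, were higher in 11 of 17 genes without overlap and lower in 1, with a median of 0.30 that was 0.69 without TH1 and 0.46 without TH2. The median was 0.20 with median-ratio scaling and 0.18 with equal FPKM sums outside the mitochondrial genome. Over all genes tested, 24.8% were higher and 25.0% lower. *ANXA8* rose, at 11.1 and 9.24 FPKM in TH against 1.46 and 1.01 in TL (log2 fold change 2.32 ± 0.22, adjusted p = 0.0193). Annexin A2 (*ANXA2*) was at 355 and 275 FPKM in TH against 72.7 and 77.6 in TL (log2 fold change 2.04 ± 0.35, adjusted p = 0.0590). Its partner *S100A10* was at 408 and 202 FPKM in TH against 67.4 and 73.3 in TL (log2 fold change 2.01 ± 0.46, adjusted p = 0.0950), with the TL libraries of each close to each other.

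Metallothioneins and redox genes held several rises. *MT1A* measured 20.6 and 12.4 FPKM in TH against 0 and 0.198 in TL and rose (log2 fold change 3.96 ± 0.45, adjusted p = 0.0326). *MT2A* measured 116 and 50.1 FPKM in TH against 5.78 and 6.12 in TL and rose (log2 fold change 3.48 ± 0.46, adjusted p = 0.0426). The 2 metallothionein genes are much alike and adjacent, and reads may be shared between them. YL2 had still higher levels, 104 FPKM of *MT1A* and 360.4 FPKM of *MT2A*, and in the same library the kidney marker *UMOD* was at 947 FPKM, against at most 0.811 FPKM in the 4 Tibetan libraries. *GLRX*, the glutaredoxin that removes glutathione from proteins, measured 139.7 and 92.7 FPKM in TH against 20.02 and 13.9 in TL and rose (log2 fold change 2.70 ± 0.29, adjusted p = 0.0301). Of 48 genes of the list, 3 rose, 0 fell, 19 were higher and 12 lower without overlap, and the median was 0.15, which was -0.04 without TH1 and 0.27 without TH2. The share of lower genes, 25.0%, was that of all genes tested, while 39.6% were higher against 24.8%.

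*HAMP*, which encodes hepcidin, the hormone that blocks iron export and is known also from heart muscle, had the largest called rise on the scale of log2(FPKM + 1). It measured 35.2 and 50.3 FPKM in TH against 0 and 0.432 in TL (log2 fold change 5.17 ± 0.48, adjusted p = 0.0193), a log2 fold change that was 7.36 on scaled reads, where *CRTAC1* was at 7.48, and was at no more than 2.09 FPKM in any Yorkshire library. It lies at chr6:40205768-40207305 (ENSSSCG00000002886). The ferritin heavy chain gene *FTH1* was at 3369 and 2056 FPKM in TH against 1669 and 1844 in TL. The transferrin receptor gene *TFRC* was at 60.99 and 65.2 FPKM in TH against 68.8 and 65.6 in TL. Other secreted proteins were among the 15 largest rises. *CHI3L1*, a chitinase-like protein of inflamed tissue, measured 11.3 and 10.1 FPKM in TH against 0.137 and 0.0987 in TL (log2 fold change 3.39 ± 0.17, adjusted p = 0.00389). The antimicrobial *SPAG11* measured 24.4 and 15.5 FPKM in TH against 0.464 and 0.269 in TL (log2 fold change 3.91 ± 0.29, adjusted p = 0.00977). The chemokine *CCL23* measured 16.6 and 33.6 FPKM in TH against 2.24 and 1.79 in TL. In all of these the TL libraries were low. *CRTAC1*, a protein of cartilage matrix, is listed at 2 loci, both of which rose, 1 with 7.02 and 6.74 FPKM in TH against 0 and 0.0235 in TL (log2 fold change 2.96 ± 0.17, adjusted p = 0.00451) and the other, listed at 0 in both TL libraries, with 2.77 and 6.46 FPKM in TH. *CHI3L1*, the first of these *CRTAC1* loci, *SPAG11* and *TNNT1* passed also at an adjusted p under 0.01 in limma, as did 1 unnamed gene that fell, ENSSSCG00000027499. *HAMP*, *CHI3L1*, *SPAG11* and both *CRTAC1* loci were under 1 FPKM in both TL libraries, so they met the FPKM filter through TH alone.

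The other rises among the 15 largest were *YBX2*, *CCDC3* and *SLC5A6*. *SLC5A6*, the transporter of biotin and pantothenate, was at 50.7 and 34.5 FPKM in TH against 4.45 and 5.46 in TL. *CCDC3* was at 25.5 and 43.3 FPKM in TH against 2.91 and 1.68 in TL. *YBX2*, an RNA-binding protein, was at 31.3 and 12.9 FPKM in TH against 0.633 and 0.934 in TL. Smaller rises at a higher level of expression included *DHRS4*, a carbonyl reductase of peroxisomes, from 176 and 184 FPKM in TL to 1243 and 655 in TH. *IGFBP2*, which binds insulin-like growth factors, rose from 9.84 and 13.4 FPKM in TL to 39.6 and 38.8 in TH. Its relative *IGFBP5* fell, at 3.07 and 5.66 FPKM in TH against 23.1 and 23.4 in TL (log2 fold change -2.22 ± 0.31, adjusted p = 0.0443). *HOPX*, a cofactor of cardiac transcription, was the only called gene of 20 cardiac transcription factors, at 10.9 and 8.201 FPKM in TH against 2.53 and 2.88 in TL. *TBX5* was at 9.14 and 8.39 FPKM in TH against 15.3 and 17.1 in TL. *SRF* was at 30.5 and 28.6 FPKM in TH against 45.5 and 48.9 in TL, both without a call.

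**Figure D4:**
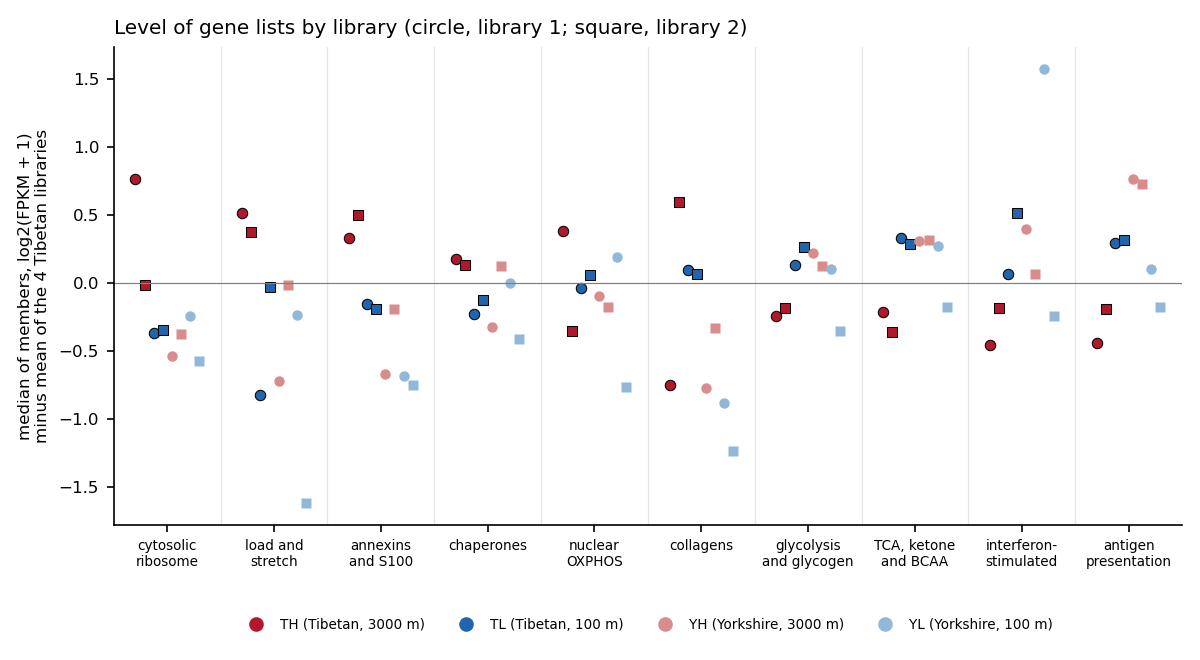
Median over the members of 10 gene lists of log2(FPKM + 1) minus the mean of the 4 Tibetan libraries, by library; red and blue are TH and TL, pale colours the Yorkshire groups. The citric acid cycle list separates TH from TL with both libraries of a group together, whereas collagens and nuclear oxidative phosphorylation (OXPHOS) split TH1 from TH2.

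Interferon-stimulated and antigen presentation genes were mostly lower in TH. Of 35 interferon-stimulated genes, 19 were lower and 0 higher without overlap, against 25.0% and 24.8% of all genes tested, and 0 were called. The median was -0.62, which was -0.38 without TH1 and -0.35 without TL2. *OAS2*, an antiviral sensor of double-stranded RNA, was at 5.42 and 5.79 FPKM in TH against 12.6 and 14.2 in TL (log2 fold change -1.13 ± 0.19, adjusted p = 0.0566). *MX1*, an antiviral GTPase, was at 1.12 and 0.818 FPKM in TH against 3.29 and 9.14 in TL. The TL libraries differed from each other here, at a list median of 0.07 in TL1 and 0.51 in TL2 relative to the mean of the 4. The largest value of the list among all 8 libraries belonged to YL1, at 1.57.

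All 15 genes of antigen presentation had a negative fold change, 10 without overlap against 25.0% of all genes tested, with a median of -0.58 and 0 calls. The class II gene *SLA-DQA1* was at 45.3 and 53.2 FPKM in TH against 97.8 and 108 in TL. *SLA-DQB\*G07* was at 24.9 and 34.8 FPKM in TH against 62.4 and 67.9 in TL. *SLA-DRB\*K07G*, outside the list, measured 11.3 and 16.7 FPKM in TH against 55.8 and 44.9 in TL and fell (log2 fold change -1.79 ± 0.26, adjusted p = 0.0463). The class I gene *SLA-5* was at 71.3 and 60.9 FPKM in TH against 133 and 125 in TL. These genes vary between pigs and are alike among themselves, so that reads can be lost or shared. *C1QA*, a complement chain made by tissue macrophages, was at 4.49 and 13.1 FPKM in TH against 44.1 and 45.5 in TL (log2 fold change -2.38 ± 0.41, adjusted p = 0.0590). *C1QC*, another, was at 6.17 and 20.4 FPKM in TH against 47.9 and 53.3 in TL. The macrophage receptor gene *CSF1R* was at 1.44 and 2.74 FPKM in TH against 4.03 and 3.46 in TL. Of the 10 macrophage and monocyte markers tested, 3 were higher, 3 lower and 4 overlapped. *CD68* was at 5.39 and 5.95 FPKM in TH against 2.89 and 2.600 in TL, and *CD14* was at 7.55 and 7.902 FPKM in TH against 6.54 and 3.78 in TL. The 12 macrophage markers matched summed to 46.0 and 72.7 FPKM in TH and to 123 and 124.5 in TL, *C1QC* and *C1QA* being the most abundant.

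*GNLY*, the granulysin of cytotoxic lymphocytes, measured 1.17 and 1.39 FPKM in TH against 10.6 and 20.5 in TL and fell (log2 fold change -2.79 ± 0.30, adjusted p = 0.0301). The summed level of the 18 T and NK cell markers was 42.0 and 27.7 FPKM in TH and 55.2 and 73.6 in TL, *CCL5* and *GNLY* being its most abundant members, and 6 of the markers were under 1 FPKM in all 4 libraries. In *C1QC*, *GNLY* and *SLA-DRB\*K07G* both YH libraries lay above both TH libraries, *C1QC* being at 44.05 and 46.4 FPKM in YH and 45.6 and 22.9 in YL. *GNLY* was at 18.1 and 15.8 FPKM in YH and 19.2 and 9.86 in YL. *SLA-DRB\*K07G* was at 62.8 and 48.7 FPKM in YH and 17.5 and 29.3 in YL. Opposite to most of these genes, the monocyte attractant *CCL2* was at 156 and 91.2 FPKM in TH against 25.4 and 12.3 in TL (log2 fold change 2.68 ± 0.67, adjusted p = 0.114). *CXCL12*, a chemokine made by stromal cells, was lower, at 5.83 and 16.04 FPKM in TH against 39.7 and 37.5 in TL. Marker sums of several other cell types did not overlap. Those higher in TH were smooth muscle and pericytes (9655 and 6291 FPKM against 1713 and 2142, most of it *DES*), red cells (3126 and 1642 against 1248 and 1419), neutrophils (4.75 and 6.64 against 1.20 and 2.01) and mesothelium (7.45 and 8.93 against 7.31 and 2.30). Lower in TH were skeletal muscle fibres (1311 and 926 against 2705 and 2715, most of it *CKM*, while *TNNC2* of the same list rose), adipocytes (123 and 88.6 against 165 and 154), Schwann cells and neurons (14.8 and 14.3 against 26.6 and 29.7), B cells (4.01 and 4.85 against 6.504 and 6.68), mast cells (3.35 and 4.07 against 5.44 and 5.51), the conduction system (1.997 and 3.51 against 4.36 and 4.55) and liver, as given above. Several of these sums rest on few markers. Under 1 FPKM in all 4 libraries were 9 of 11 neutrophil, 5 of 9 mesothelial, 5 of 6 conduction system, 5 of 7 B cell and 5 of 8 Schwann cell and neuron markers. Of the 12 smooth muscle and pericyte markers, 4 were higher, 3 lower and 5 overlapped. Their median was 0.09, which was -0.01 with median-ratio scaling, and *DES* is also the scaffold gene described above. The part of cell content in the differences was not tested.

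Genes of oxygen sensing and hypoxia-induced genes outside glycolysis held 0 calls, and the glycolysis genes, of which 23 of 44 were lower, are given above. Of 13 genes of HIF subunits and their regulators, 0 were called, 2 were higher and 5 lower without overlap, and the median was -0.09, which was -0.04 without TL2. It was -0.18 with median-ratio scaling, -0.20 with equal FPKM sums outside the mitochondrial genome and -0.24 over the 9 genes with a mean of at least 10 FPKM. *EPAS1*, which encodes HIF-2 alpha, was at 37.7 and 57.6 FPKM in TH against 60.3 and 64.6 in TL. The prolyl hydroxylase gene *EGLN1* was at 24.01 and 25.3 FPKM in TH against 31.5 and 27.2 in TL. Its relative *EGLN3* was at 35.2 and 29.2 FPKM in TH against 37.97 and 43.9 in TL (log2 fold change -0.34 ± 0.24, adjusted p = 0.490). *CITED2*, a target that restrains HIF, was at 16.6 and 29.5 FPKM in TH against 55.4 and 36.2 in TL. These 4 were lower in both TH libraries and not called. Of 28 hypoxia-induced genes outside glycolysis, 0 were called, and 4 were higher and 7 lower without overlap. These are 14.3% and 25.0%, against 24.8% and 25.0% of all genes tested. The median was -0.04, which was -0.20 without TH2, -0.12 with median-ratio scaling and -0.14 with equal FPKM sums outside the mitochondrial genome. It was -0.01 without TH1, -0.01 without TL2 and 0.01 on scaled reads. The 4 higher genes included 2 with a log2 fold change over 1. The mitophagy gene *BNIP3* was at 69.6 and 43.3 FPKM in TH against 77.9 and 83.96 in TL. Of 31 vascular growth factors and receptors, 0 were called, 4 were higher and 7 lower, and the median was -0.17, which was 0.08 without TH1 and -0.30 without TH2. *VEGFA* overlapped between the groups, at 56.4 and 53.6 FPKM in TH against 53.3 and 86.5 in TL. *FGF1*, an angiogenic growth factor, was lower in TH, at 15.3 and 17.96 FPKM in TH against 45.2 and 56.5 in TL (log2 fold change -1.55 ± 0.25, adjusted p = 0.0531).

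The genes that the study singled out for hypoxia, for blood vessel terms and for RT-qPCR were chosen on these libraries, so their counts are no independent evidence of a direction. Of its 21 hypoxia genes, 1 rose (*NPPA*), 0 fell, 11 were higher and 6 lower without overlap, and 4 overlapped, namely *A2M*, *CCL5*, *COL3A1* and *HBA*. *A2M* was at 29.01 and 9.15 FPKM in TH against 12.6 and 13.8 in TL. *CCL5* was at 28.2 and 13.6 FPKM in TH against 26.6 and 29.3 in TL. *HBA*, alpha globin, was at 1376 and 745 FPKM in TH against 581 and 754 in TL. Globin genes have near-identical copies, so their values are uncertain. *HBB*, beta globin, was at 1708 and 876 FPKM in TH against 649 and 642 in TL. *AGT*, angiotensinogen, was at 53.1 and 41.7 FPKM in TH against 70.4 and 94.3 in TL. *DPP4*, a peptidase of the cell surface, was at 11.3 and 9.01 FPKM in TH against 16.5 and 20.3 in TL. None of these was called. *TGFB2*, a growth factor, was at 90.97 and 73.2 FPKM in TH against 24.9 and 56.8 in TL. Of the 13 genes of its endothelial tube and angiogenesis terms, *CD151* and *ITGAV* rose and *PFKM* fell. The remaining ones included *PPP1R14B*, an inhibitor of myosin phosphatase, at 235 and 99.1 FPKM in TH against 31.7 and 31.01 in TL (log2 fold change 2.25 ± 0.38, adjusted p = 0.0590). The transglutaminase *TGM2* was at 145 and 165 FPKM in TH against 69.6 and 70.03 in TL (log2 fold change 1.14 ± 0.20, adjusted p = 0.0590). The small heat shock protein gene *HSPB8* was at 635 and 486 FPKM in TH against 189 and 294 in TL. These were higher in TH without a call. *JUNB* was at 51.1 and 53.6 FPKM in TH against 21.99 and 16.3 in TL. Fibronectin (*FN1*) was at 8.59 and 31.4 FPKM in TH against 9.63 and 9.13 in TL, where TH2 alone was high. Of the 8 genes of its RT-qPCR, *ADHFE1* fell, and 6 were lower and 1, *FOS*, higher without overlap. *FOS* was at 53.8 and 85.5 FPKM in TH against 50.9 and 41.97 in TL, with a log2 fold change of 0.54 that was -0.49 on scaled reads.

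Immediate early genes, which answer acute stimuli within minutes, were split. The median of the 31 tested was 0.20, which was 0.11 with median-ratio scaling and 0.08 with equal FPKM sums outside the mitochondrial genome. Without overlap 12 were higher and 6 lower, 38.7% and 19.4% against 24.8% and 25.0% of all genes tested. Of the 31, 0 rose and 1 fell. It was the largest of all falls: *NOR-1* (*NR4A3*), a nuclear receptor, measured 1.15 and 6.39 FPKM in TH against 44.6 and 77.1 in TL (log2 fold change -3.90 ± 0.56, adjusted p = 0.0463). *ATF3*, a stress transcription factor, was at 38.8 and 50.00 FPKM in TH against 144 and 179.6 in TL (log2 fold change -1.85 ± 0.29, adjusted p = 0.0520). *NR4A1*, the relative of *NOR-1*, was at 47.3 and 102 FPKM in TH against 266 and 106 in TL. Higher in TH and not called were *CYR61*, *CTGF* and *DUSP1*. *CYR61*, a matrix protein, was at 178 and 170.2 FPKM in TH against 95.9 and 65.3 in TL. Its relative *CTGF* was at 192 and 176 FPKM in TH against 81.2 and 151 in TL. The phosphatase *DUSP1* was at 172 and 232 FPKM in TH against 155 and 115 in TL. In *ATF3*, *NR4A1*, *DUSP1* and *FOS* every Tibetan library was above every Yorkshire library, TH included: *ATF3* was at 5.24 and 9.16 FPKM in YH and 13.5 and 5.17 in YL in the Yorkshire libraries.

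The rest of the 15 largest falls with a gene symbol held enzymes and membrane proteins of several kinds. Of genes without one, ENSSSCG00000022983 (log2 fold change -2.49) and ENSSSCG00000027499 (-2.28) fell by more than the smallest of these. *CES1*, a carboxylesterase, measured 1.24 and 2.01 FPKM in TH against 19.1 and 15.9 in TL (log2 fold change -2.83 ± 0.38, adjusted p = 0.0436). *NT5C1A*, which makes adenosine from AMP in muscle, measured 1.37 and 3.96 FPKM in TH against 19.7 and 17.9 in TL (log2 fold change -2.53 ± 0.36, adjusted p = 0.0452). *GP1BB*, a chain of the platelet receptor for von Willebrand factor, measured 5.46 and 2.57 FPKM in TH against 22.8 and 42.9 in TL, though the 6 platelet markers matched were all under 1 FPKM in the 4 libraries. It is listed as a short gene at chr14:54900259-54900403, and on scaled reads in place of FPKM its log2 fold change was -0.57. The purine receptor *P2RY1* measured 0.639 and 1.31 FPKM in TH against 5.68 and 7.32 in TL. *TMEM163*, a zinc transporter, measured 1.11 and 0.6102 FPKM in TH against 7.94 and 11.8 in TL (log2 fold change -2.54 ± 0.25, adjusted p = 0.0193) and was at 0.235 and 0.2202 FPKM in YH and 0.381 and 0.0846 in YL. *DDC*, aromatic amino acid decarboxylase, measured 1.46 and 2.74 FPKM in TH against 8.74 and 13.3 in TL, and 0.2397 and 0.384 FPKM in YH and 7.69 and 247 in YL.

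Whether an altitude difference of the Tibetan pigs departs from that of the Yorkshire pigs was tested with an interaction term fitted to all 8 libraries, which sets the Tibetan difference against the Yorkshire one. With limma, 0 of 10926 genes passed an adjusted p under 0.05 with a log2 difference over 1 in size, while 1254 had an unadjusted p under 0.05. The lowest adjusted p was 0.0632, that of *CRTAC1*, and *CHI3L1* had 0.0843. YL1 and YL2 differ from each other in many genes, and the count was 838 without YL1 and 0 without YL2. For *NPPB* the interaction was 8.83 ± 1.81 (SE), with an adjusted p of 0.248, and for *HAMP* 4.90 ± 0.72, with an adjusted p of 0.179.

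Set beside the Yorkshire libraries, most of the 46 rises were genes in which TH stood high. In 35 of them both TH libraries lay above all 6 others, which is so in 10.8% of all genes tested, and in 18 both TL libraries lay below all 6 others, against 3.73%. Of the 41 falls, TH was below all others in 26 and TL above all others in 17, against 7.94% and 5.24% of all genes. Without YL2, in which kidney markers summed to 4852 FPKM, these 4 counts were 42, 25, 33 and 20, against 14.6%, 6.13%, 12.01% and 7.63% of all genes. These shares describe genes already chosen for a difference between TH and TL. *HAMP*, *CHI3L1*, *CRTAC1*, *TNC* and *NPPA* are of the first kind and *KCNIP2*, *P2RY1* and *GNLY* of the third, whereas *NOR-1*, *TMEM163*, *FHL2* and *MMP11* are genes in which TL stood above every other library.

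**Figure D5:**
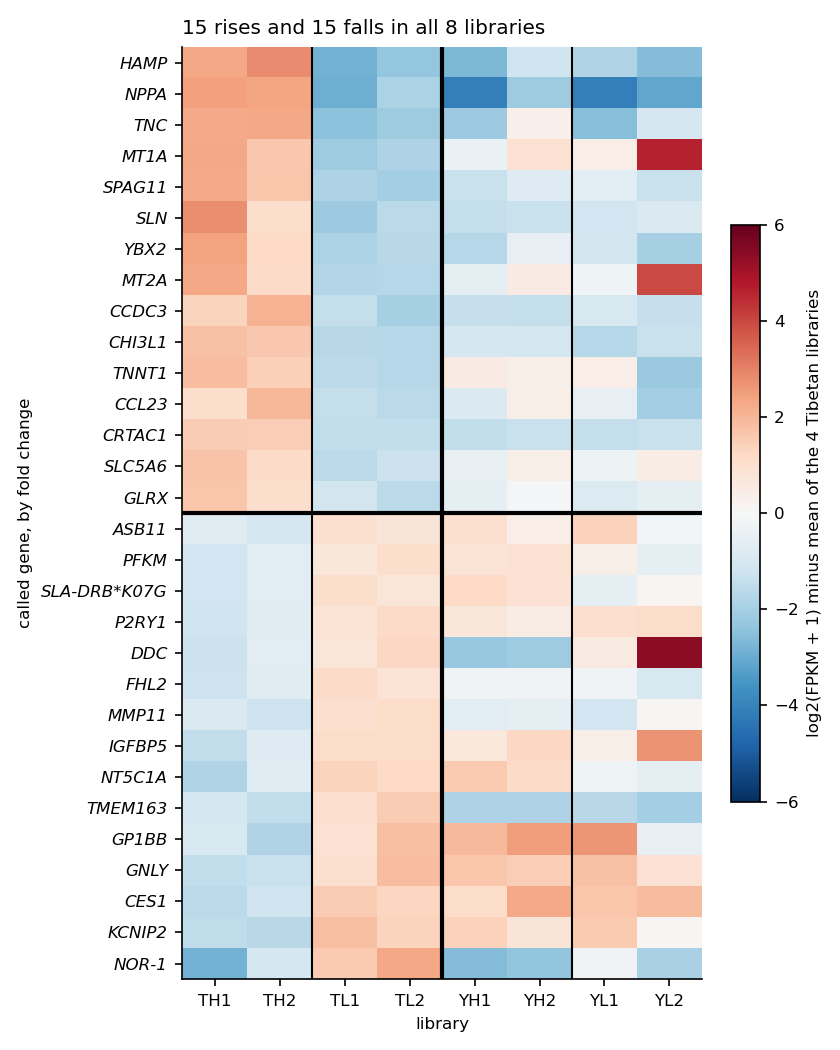
Log2(FPKM + 1) minus the mean of the 4 Tibetan libraries for the 15 largest rises (above the line) and the 15 largest falls (below it) among genes with a symbol in all 8 libraries, red being higher. The rises are red in TH1 and TH2, with exceptions such as *MT1A* and *MT2A*, which are higher still in YL2, and *NOR-1* and *TMEM163* are red in TL1 and TL2 alone.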

How the data were processed

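RNA from pig heart was sequenced by the authors on an Illumina instrument as paired-end reads, with RNA of 4 pigs pooled per library and 2 libraries per group. Per the labels and the study's methods, reads were aligned with TopHat2 (2.0.9) and Bowtie (0.12.5) to Sscrofa10.2 with the Ensembl release 72 annotation. The deposited table gives, for each gene and library, the FPKM that the authors computed with Cufflinks. It also gives the authors' scaled reads, a signal in which read numbers were divided by 1 factor per library for their test with DESeq (1.10.1). Between 99.7% and 99.8% of the scaled values under 1000 reads came out as whole reads, within 0.05 of a read, after multiplication by that factor. Whether counting used strand is not given in the sources used here. A further 8 columns hold group means and ratios of the authors and were not used.

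FPKM were taken as log2(FPKM + 1), and genes were filtered as stated in the report. TH and TL were compared with limma (3.58.1, R 4.3.3) with a trend in the moderation, fitted to group means of the 4 Tibetan and the 2 YH libraries, with Benjamini-Hochberg adjustment over all 10926 genes. YL was left out of that fit because an earlier look at these data had found 1 of its libraries to stand apart from all others, and entered only the interaction. On data simulated for this comparison over 10926 genes, with 200 genes changed, 0% were recovered at a log2 fold change of 1, 75.5% at 2 (with 8 false calls) and 92.5% at 3 (with 13). The simulation gave all groups 1 spread per gene, although the TH libraries were less alike than the TL libraries. It changed only genes above a minimum level. A call needs a fitted log2 fold change over 1, so true changes of 1 lay at the threshold. These numbers describe the simulated setting and not the recovery in the data. Genes named are the 15 largest called changes in each direction among genes with a symbol, from each list up to 6 members that do not overlap and have the largest fold changes and up to 4 with the highest FPKM, the genes the study singled out, markers of cell types whose sums do not overlap, and up to 5 genes most unlike within a group. The called genes *AMT*, *BMP1*, *CACNG6*, *CMYA5*, *DHRS4*, *DTNA*, *PARVB* and *PLIN2* lie outside this rule and were picked with their values in view. The members and lists were chosen with earlier results of these data known. Some genes that the rule names are not reported here.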

Additional observations from a re-analysis of the deposited data

How the results depend on the processing

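The number of genes called from TH to TL, 87, became 7 with all 8 libraries in the fit, 14 with only the 4 Tibetan libraries, 31 with median-ratio scaling, 28 with a pseudocount of 0.1, 16 without a filter on low values, 144 with a mean of at least 10 FPKM, 5 at an adjusted p under 0.01 and 461 at an unadjusted p under 0.01. It ranged from 0 (without TL1) to 1485 (without TH2) when each library was left out in turn, where the lone library of a group is assumed to vary like the other groups. For the interaction, 0 calls became 7 without the filter and 320 at an unadjusted p under 0.01, and ranged from 0 to 838 (without YL1). With the replicate number as a block, 81 genes were called, of which 60 were among the 87. Deviations of same-numbered libraries had a Pearson r of -0.01 between TH and TL, 0.17 between TH and YH and 0.06 between TL and YH, across 4057 genes, and not every pair was over 0.1, so the numbers were not taken to pair the samples. The median of all genes shifted by -0.10 with equal FPKM sums outside the mitochondrial genome. With scaled reads in place of FPKM, an alternative added after seeing the data, 125 genes were called, and *A2M* was at -0.44 and *FOS* at -0.49, with opposite sign to the values from FPKM. Leaving out 1 library moved *CCL5* between -0.99 and 0.013, *A2M* between -0.49 and 1.08 and *FN1* between -0.11 and 1.64. The cause was not tested. The planned count tests with edgeR and DESeq2 were not run, since the reads estimated from the scaled values were not used for tests.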
